A study of Mus musculus with 4 samples.

Results

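The deubiquitinase Bap1 and 9 genes of its known protein complexes were examined in fibroadipogenic progenitors (FAPs), the interstitial mesenchymal cells of skeletal muscle. The genes were Bap1, Asxl1, Asxl2, Asxl3, Foxk1, Foxk2, Hcfc1, Ogt, Mbd5, and Mbd6. They were chosen by name, and all 10 were among the 20027 genes of the table. RNA-Seq was performed on FAPs from hind limb muscle of male C57BL/6 mice aged 1.5 weeks, in 2 WT and 2 cKO libraries. The sort kept Sca1+ cells and removed those with CD31, CD45, or Vcam1. The cKO mice were Prx1-Cre;Bap1f/f, in which Cre is active in limb mesenchyme and the floxed cassette of Bap1 was built so that deletion shifts the reading frame. For WT the sample titles give Prx1-Cre alone, but the controls are described elsewhere as floxed mice without Cre, so their genotype is unclear. Each title names a numbered male, and whether the males were littermates was not given in the sources used here.

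Bap1 is a ubiquitin hydrolase of the nucleus. With an additional sex combs-like protein (Asxl1, Asxl2, or Asxl3) as its activating subunit it forms the Polycomb repressive deubiquitinase, which removes ubiquitin from histone H2A and so opposes Polycomb repressive complex 1. The forkhead proteins Foxk1 and Foxk2 bring the enzyme to DNA, Hcfc1 (host cell factor) connects it to transcriptional coactivators, and Ogt is the transferase that attaches N-acetylglucosamine to nuclear and cytosolic proteins and also cleaves Hcfc1 into its mature form. Mbd5 and Mbd6 are proteins with a methyl-CpG-binding domain that bind the Asxl subunits.

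Depth was 46.5 and 89.1 M reads in WT replicates 1 and 2 and 90.4 and 41.4 M reads in cKO replicates 1 and 2, if 1 step between the lowest values of the table is 1 read. FAP markers were present in every library, with the RPKM (reads per kilobase of transcript, scaled to M mapped reads) of 7 markers summing to between 6797 and 6884 in WT and between 4744 and 4967 in cKO, and 5 of the 7 were lower in cKO. Markers of other cells moved with the groups. Of 6 cartilage and bone markers, all 5 tested were higher in cKO, and their sum rose from between 25.0 and 30.5 to between 1619 and 1825 RPKM. All 4 tendon markers and all 3 pericyte and smooth muscle markers were also higher (summed RPKM 42.0 to 54.2 in WT and 748 to 926 in cKO for tendon, and 16.0 to 27.9 and 184 to 241 for pericytes), and all 3 myofiber markers were lower. Of 2 tested markers each, 1 was higher for endothelial and for hematopoietic cells, 2 for Schwann cells, and 1 was higher and 1 lower for muscle stem cells, whose defining marker Pax7 was at 0.0023 to 0.099 RPKM. The endothelial markers did not move together. Cdh5 was the higher one, whereas Pecam1, with no call, was at 1.67 and 3.12 RPKM in WT and at 0.537 and 1.63 RPKM in cKO. Kdr, not tested, was at 0.607 and 0.998 RPKM in WT and at 0.542 and 0.458 RPKM in cKO. The part of these cells in the values below was not tested, and in sorted bulk samples a different mix of cells cannot be told apart from a different amount of RNA per cell.

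The table also held a shift of all genes. The median log2 fold change (cKO minus WT, on log2(RPKM + 1)) of the 11197 tested genes, those that reached 1 RPKM in 2 or more libraries, was 0.27, and it was 0.01, -0.02, and 0.00 after median-ratio, quantile, and cyclic loess scaling. Of all tested genes, 42.4% passed the threshold of an adjusted p of 0.05 (limma with Benjamini-Hochberg adjustment), 35.9% higher and 6.48% lower. Of these calls 84.7% were higher as deposited, against 53.7%, 49.4%, and 52.4% with the 3 scalings.

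Among the members, Asxl1, Hcfc1, and Bap1 had the most abundant transcripts in WT FAPs per length. They were at 14.4 ± 0.175, 13.5 ± 0.258, and 13.4 ± 0.776 RPKM (SD, n = 2 each). Below them came Ogt (9.61 ± 1.27), Foxk2 (8.68 ± 0.419), Mbd6 (7.37 ± 1.46), Foxk1 (5.20 ± 0.915), Mbd5 (3.52 ± 0.110), Asxl2 (2.81 ± 0.391), and Asxl3 (0.169 ± 0.0728 RPKM). The ranges of Hcfc1 and Bap1 overlapped in WT, as did those of Ogt and Foxk2 and of Foxk2 and Mbd6. In cKO the order was Hcfc1, Asxl1, Ogt, Bap1, Foxk2, Mbd6, Foxk1, Asxl2, Mbd5, and Asxl3, in which the ranges of Ogt and Bap1 and of Asxl2 and Mbd5 overlapped. Bap1 stood above 67.6% of tested genes by its mean level, and the other tested members stood above 27.9% (Asxl2) to 71.6% (Hcfc1).

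**Figure D1:**
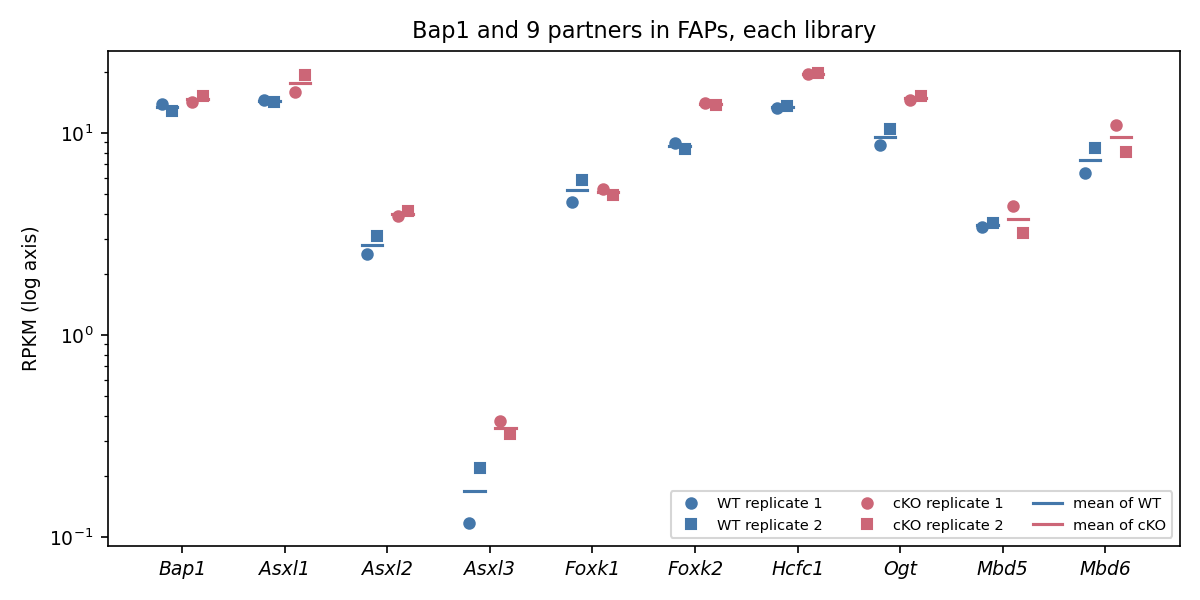
RPKM of Bap1 and its 9 partners on a log axis, with 1 point for each library (circles, replicate 1 and squares, replicate 2) and a line at the mean of each group. In 7 of the 10 members both cKO libraries sit above both WT libraries, beside 56.8% of tested genes. They are Bap1, Asxl1, Asxl2, Asxl3, Foxk2, Hcfc1, and Ogt, of which Asxl3 was not among the tested genes. The Bap1 points lie between 12.9 and 15.3 RPKM, and Asxl3 stays under 0.4 RPKM in all 4 libraries.

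Bap1 itself was not lower in the libraries labelled cKO. The gene, of 17 exons, occupies chromosome 14 between 31251450 and 31259944 (GRCm38, GENCODE, plus strand). Its RPKM was 14.0 and 12.9 in WT and 14.2 and 15.3 in cKO, so both cKO libraries were slightly above both WT libraries. The log2 fold change was 0.13 (SE 0.13, 95% interval -0.17 to 0.43, limma adjusted p = 0.443), and 39.0% of tested genes had a lower one. With the other scalings it was negative, at -0.16, -0.22, and -0.22, with no call. Per gene, the RPKM counts the whole transcript and not the deleted exons, so it does not test the deletion. For these libraries the genotypes therefore rest on the labels. For mice of this cross the paper reports disruption of Bap1 in FAPs. It cites genotyping of the deletion and qRT-PCR, whose values were not in the sources used here. Its immunoblot of the protein is of FAPs from mice aged 4 weeks, not 1.5 weeks. Of the 3879 tested genes with a mean within 2-fold of that of Bap1, the closest in pattern over the 4 libraries were Fam96b, Zfp142, and Adnp2, with a root mean square difference of 0.0040, 0.014, and 0.015 log2 units. A looser likeness was common over so few libraries, as 383 of the 3879 genes lay within 0.1 log2 units.

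Of the 9 members that passed the filter on low values, all of them above 1 RPKM in each library, 3 were higher in cKO and 0 were lower. This is 3 of 9 beside 35.9% of all tested genes called higher. At an unadjusted p under 0.05 no member was lower either. Their median log2 fold change was 0.33, beside 0.27 over all tested genes, and 6 of the 9 lay above the median gene. In 7 of all 10 members both cKO libraries were above both WT libraries, beside 56.8% of tested genes. The 7 include Asxl3, which was not among the tested genes. In either direction, 72.3% of tested genes did not overlap. The shares called were near those of all genes.

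The 3 members that rose were Foxk2 (GRCm38 chromosome 11, 121259990 to 121309896), Ogt (chromosome X, 101640060 to 101684351), and Hcfc1 (chromosome X, 73942792 to 73966357). Foxk2, a forkhead protein, was at 8.98 and 8.38 RPKM in WT and at 14.1 and 13.8 RPKM in cKO. The groups were well apart, and the log2 fold change was 0.62 (SE 0.13, 95% interval 0.32 to 0.93, limma adjusted p = 0.00817). Ogt, the N-acetylglucosamine transferase, was at 8.71 and 10.5 RPKM in WT and at 14.7 and 15.2 RPKM in cKO. The WT libraries differed more than the cKO libraries, and the log2 fold change was 0.59 (SE 0.14, 95% interval 0.26 to 0.92, limma adjusted p = 0.0137). Hcfc1 was at 13.3 and 13.7 RPKM in WT and at 19.6 and 19.8 RPKM in cKO. Its replicates were the closest of the 3, and the log2 fold change was 0.51 (SE 0.12, 95% interval 0.23 to 0.79, limma adjusted p = 0.0130). Relative to the median gene the differences were 0.36, 0.33, and 0.25 log2 units. All 3 calls ended under each of the other scalings, where the log2 fold changes were 0.28 to 0.34 for Foxk2, 0.24 to 0.31 for Ogt, and 0.15 to 0.22 for Hcfc1. The Foxk2 call also ended without WT replicate 2 (0.58), that of Ogt without WT replicate 1 (0.47), and that of Hcfc1 without either WT library (0.49 and 0.53). Between 70.0% and 77.5% of tested genes had a lower log2 fold change than these members.

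**Figure D2:**
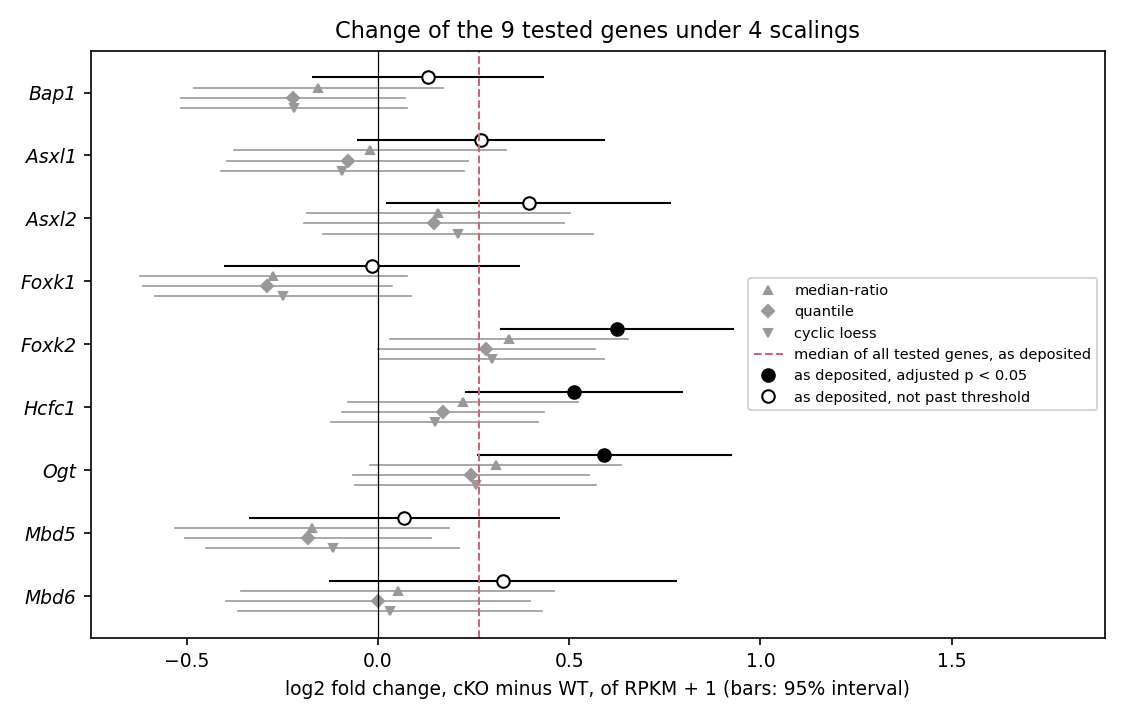
Log2 fold change (cKO minus WT, of RPKM + 1) of the 9 tested members with 95% intervals, as deposited (circles, filled where the adjusted p is under 0.05) and after 3 rescalings (gray symbols). The filled circles are Foxk2, Hcfc1, and Ogt, at 0.62, 0.51, and 0.59, and all members lie further left after each rescaling. The dashed line is the median of all genes as deposited, 0.27.

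The starts of these 3 genes and of Bap1 are shown because they are the members whose levels the comparison turns on. Each line gives the 100 bases before the RefSeq start on the gene's own strand (GRCm38.p6), with every CG in capitals. For genes with several starts the most upstream one was taken, and other transcripts may begin within the stretch.
Bap1 (chr14:31251389-31251488, plus strand): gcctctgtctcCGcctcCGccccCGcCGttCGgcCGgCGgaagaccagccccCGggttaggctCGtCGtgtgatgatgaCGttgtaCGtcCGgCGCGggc
Foxk2 (chr11:121259887-121259986, plus strand): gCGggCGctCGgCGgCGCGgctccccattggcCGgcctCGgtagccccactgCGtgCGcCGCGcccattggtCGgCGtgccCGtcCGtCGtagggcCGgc
Hcfc1 (chrX:73966358-73966457, minus strand): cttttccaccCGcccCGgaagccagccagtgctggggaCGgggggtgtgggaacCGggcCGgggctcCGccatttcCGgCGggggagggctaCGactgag
Ogt (chrX:101639951-101640050, plus strand): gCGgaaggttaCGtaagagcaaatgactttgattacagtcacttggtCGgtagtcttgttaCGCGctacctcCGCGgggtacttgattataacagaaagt

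All 4 starts hold more CG than the median gene, Hcfc1 and Ogt by less than Bap1 and Foxk2. The stretches hold 15, 18, 9, and 7 CG. In the whole RefSeq window, from 250 bases before to 50 after the start, Bap1 has 50 CG, Foxk2 has 59, Hcfc1 has 21, and Ogt has 20, beside a median of 7 over 27025 genes. The members that rose thus include the window richest in CG of the 8 members with a window and also some of the poorer ones. Windows of the members that were not called ranged from 13 (Asxl1) to 50 (Bap1), with 36 for Asxl2. The forkhead motif GTAAACA, searched on both strands, was in 0 of the 8 windows and in 3.52% of all windows. The core motif of Yy1, CCATNTT, was in 2 of the 8 (Asxl1 and Hcfc1) and in 16.3% of all windows. These matches describe letters only.

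The Asxl subunits, without which Bap1 has little activity, did not pass the test with all 4 libraries. Asxl1 was at 14.5 and 14.3 RPKM in WT and at 16.0 and 19.3 RPKM in cKO. Both cKO libraries were above WT, but they differed from each other, and the log2 fold change was 0.27 (95% interval -0.05 to 0.59, limma adjusted p = 0.155). Without cKO replicate 1 it was 0.40 and called (limma adjusted p = 0.0379), and without cKO replicate 2 it was 0.14. Asxl2 was at 2.53 and 3.08 RPKM in WT and at 3.88 and 4.10 RPKM in cKO. The groups did not overlap, and the log2 fold change was 0.39 (95% interval 0.02 to 0.76, limma adjusted p = 0.0819). Asxl3 did not pass the filter, at 0.117 and 0.220 RPKM in WT and 0.375 and 0.323 RPKM in cKO. These low values would stand for 63.7 and 229 reads in WT and 396 and 156 in cKO, given its transcript of 11697 bases. Without the filter its log2 fold change was 0.21 with a pseudocount of 1 (adjusted p = 0.0706) and 0.76 with one of 0.1 (adjusted p = 0.148). Asxl1 made up most of the family in every library, with 84.6% and 81.2% of the summed RPKM of the 3 genes in WT and 78.9% and 81.4% in cKO. Asxl2 made up 14.7% and 17.5% in WT and 19.2% and 17.3% in cKO, and Asxl3 at most 1.85%. The ratio of Asxl2 to Asxl1 was 0.174 and 0.216 in WT and 0.243 and 0.212 in cKO, with overlap between the groups. Of all other tested genes, 35.4% had a ratio to Asxl1 that was higher in both cKO libraries, and 60.9% one without overlap.

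Foxk1 differed from its paralog Foxk2 in that its groups overlapped. It was at 4.55 and 5.85 RPKM in WT and at 5.29 and 4.91 RPKM in cKO, with a log2 fold change of -0.02 (95% interval -0.40 to 0.37, limma adjusted p = 0.947). A ratio within a library does not change with a single factor per library, but quantile and cyclic loess scaling can change it. For Foxk2 to Foxk1, as deposited, it was 1.97 and 1.43 in WT and 2.66 and 2.80 in cKO. The cKO mean was 1.60 times the WT mean, and the groups did not overlap. Among all other tested genes, 52.9% had a ratio to Foxk1 that was higher in both cKO libraries than in both WT libraries. Without overlap in either direction were 67.1%. With 2 libraries in each group the smallest two-sided p of an exact permutation test is 0.33, so this difference was not tested.

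Mbd5 and Mbd6 overlapped between the groups. Mbd6 was at 6.34 and 8.41 RPKM in WT and at 11.0 and 8.04 RPKM in cKO, with 1 cKO library as low as the WT libraries (log2 fold change 0.33, 95% interval -0.13 to 0.78, limma adjusted p = 0.212). Mbd5 was at 3.44 and 3.60 RPKM in WT and at 4.34 and 3.21 RPKM in cKO, where the cKO libraries lay on both sides of WT (0.07, 95% interval -0.33 to 0.47, limma adjusted p = 0.776). Both were higher in cKO replicate 1 than in cKO replicate 2. Without cKO replicate 1 the log2 fold change of Mbd6 was 0.12, and without cKO replicate 2 it was 0.53 and called (limma adjusted p = 0.0474). The ratio of Mbd6 to Mbd5 was 1.84 and 2.34 in the WT libraries and 2.53 and 2.51 in the cKO libraries, without overlap. Of all other tested genes, 44.6% had a ratio to Mbd5 that was likewise higher in both cKO libraries, and 65.3% one without overlap. Mbd5 shares 136 exonic bases with Orc4 on the other strand, Asxl1 shares 197 with 2500004C02Rik, and Asxl2 shares 155 with 1110002L01Rik. Reads of such pairs cannot be told apart without strand, and whether strand was used in counting was not given in the sources used here. Orc4 was at 3.97 and 3.87 RPKM in WT and at 7.24 and 7.24 RPKM in cKO. Its part in the Mbd5 values was not tested.

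**Figure D3:**
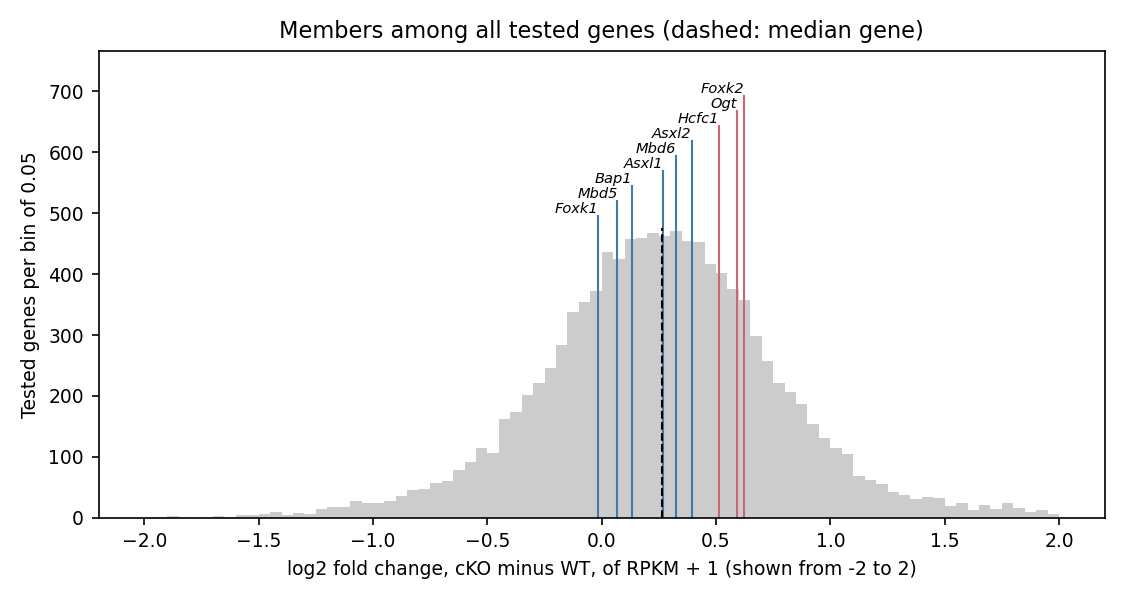
Number of tested genes (vertical axis) by log2 fold change, cKO minus WT, in bins of 0.05, with the 9 tested members as vertical lines (red, adjusted p under 0.05). The members lie from -0.02 (Foxk1) to 0.62 (Foxk2), around the median gene at 0.27 (dashed).

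Relative to Bap1 in the same library, 6 of the 9 partners were higher in both cKO libraries than in both WT libraries. The 6 include Asxl3, which was not among the tested genes. Among all other tested genes 45.9% were likewise higher, and 65.3% did not overlap in either direction. For Foxk2 the ratio was 0.643 and 0.652 in WT, against 0.987 and 0.899 in cKO. Its level was thus nearer to that of Bap1 in both cKO libraries. For Ogt it was 0.624 and 0.817 in WT, against 1.03 and 0.991 in cKO. For Hcfc1 it was 0.955 and 1.06 in WT, against 1.38 and 1.29 in cKO. The ratio of the group means was 1.46 for Foxk2, 1.40 for Ogt, and 1.32 for Hcfc1. Asxl1, Asxl2, and Asxl3 also did not overlap, with ratios of the means of 1.11, 1.28, and 1.85, the last from values under 0.03 of Bap1. Foxk1, Mbd5, and Mbd6 overlapped, and the sign of their difference changed with the libraries included. Since Bap1 is the common divisor, these ratios share its error.

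**Figure D4:**
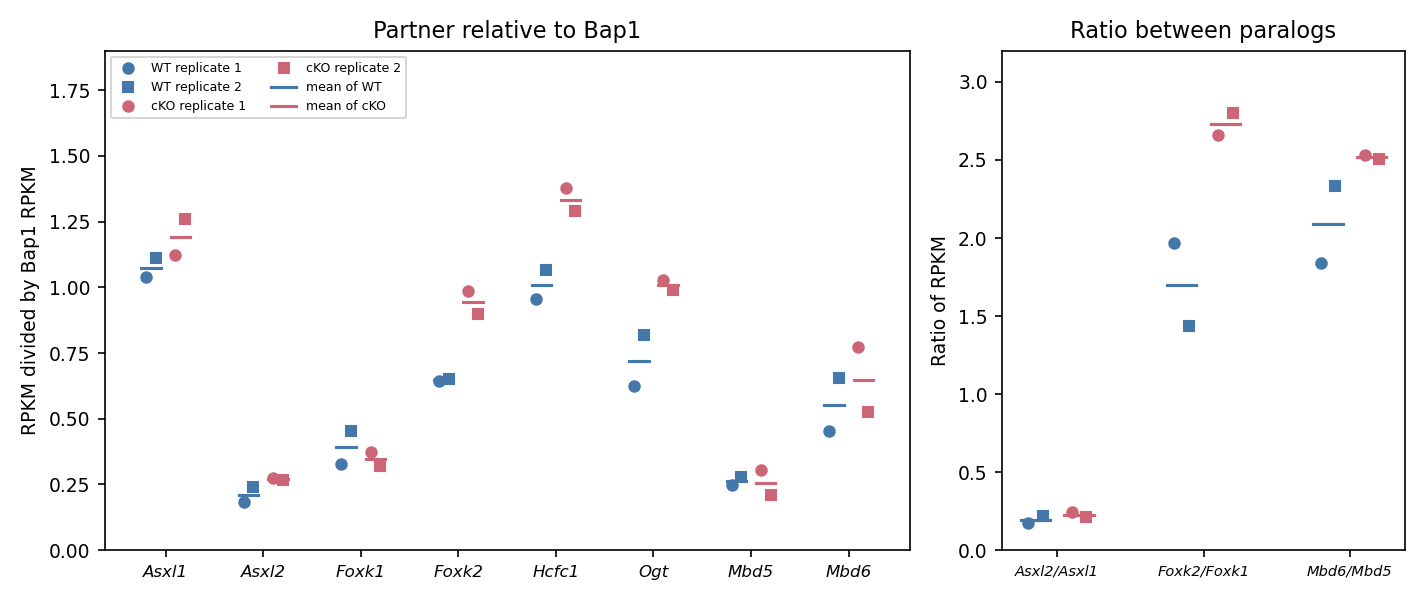
Left, RPKM of 8 partners divided by that of Bap1 in each library (Asxl3, under 0.03, is not drawn). Right, the ratio of RPKM between paralogs. Circles are replicate 1, squares are replicate 2, and lines are group means. Relative to Bap1, the groups do not overlap for Asxl1, Asxl2, Foxk2, Hcfc1, and Ogt, nor for 65.3% of all other tested genes. Between paralogs they do not overlap for Foxk2 to Foxk1 and Mbd6 to Mbd5. Of all other tested genes, 67.1% relative to Foxk1 and 65.3% relative to Mbd5 do not overlap either.

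The libraries form a shallow pair (WT replicate 1 and cKO replicate 2) and a deep pair (WT replicate 2 and cKO replicate 1). Foxk2 was higher in cKO by 0.57 in the shallow and 0.68 log2 units in the deep pair, Hcfc1 by 0.54 and 0.49, and Ogt by 0.74 and 0.44. The median gene differed by 0.26 and 0.28. Bap1 differed by 0.13 and 0.14, below the median gene at both depths. With depth class as a covariate, an alternative chosen after the data were seen, 5 members were higher, the additional ones being Asxl2 (limma adjusted p = 0.0449) and Mbd6 (limma adjusted p = 0.0497). Calls rose over all tested genes too, with 4807 higher in place of 4016 and 1088 lower in place of 726.

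Genes that work with or beside the complex were counted from lists of 59 symbols, of which 54 were tested. Of these, 20 were higher and 3 lower, beside 35.9% and 6.48% of all tested genes, so the counts were near those shares. They had a median log2 fold change of 0.29 beside 0.27 over all tested genes, and with the other scalings 3 to 5 were higher and 8 to 10 lower. Over all 11197 tested genes these scalings gave 1769 to 1885 higher and 1527 to 1818 lower, in place of 4016 and 726. How many of these genes were called in each direction therefore depended on the scaling.

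Among proteins that bind or modify Bap1, 1 of 6 tested was higher and 0 were lower (35.9% and 6.48% over all tested genes). Itpr3, a calcium channel of the endoplasmic reticulum that Bap1 deubiquitinates in human cells, was at 1.45 and 1.43 RPKM in WT and at 5.39 and 4.96 RPKM in cKO (log2 fold change 1.34, limma adjusted p = 0.00101). It was called in the same direction with each scaling and without each library in turn. Ino80, Ube2o, Kmt2c, Yy1, and Kdm1b, the other tested genes of the list, had limma adjusted p from 0.0640 (Ino80) to 0.627 (Kdm1b). Brca1 and Bard1 were under 1 RPKM in all 4 libraries and were not tested.

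Of the ubiquitin hydrolases related to Bap1, Uchl1 and Uchl3 were higher and Uchl5 had no call (all tested genes, 35.9% higher). Uchl3 was at 7.73 and 6.29 RPKM in WT and at 10.3 and 10.7 RPKM in cKO (log2 fold change 0.53, limma adjusted p = 0.0249). Uchl1 was at 11.6 and 6.24 RPKM in WT and at 17.0 and 20.1 RPKM in cKO (log2 fold change 1.03, limma adjusted p = 0.0142), a difference of 1.43 without WT replicate 1 and 0.63 without WT replicate 2. Neither call held with any of the 3 other scalings, and that of Uchl3 ended without WT replicate 2 (0.40).

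Of 13 subunits of Polycomb repressive complex 1, which attaches the ubiquitin that Bap1 removes, 3 were higher and 1 was lower, beside 35.9% and 6.48% of all tested genes. Pcgf5, a subunit of a variant complex, was at 5.06 and 3.68 RPKM in WT and at 8.55 and 8.83 RPKM in cKO (log2 fold change 0.86, limma adjusted p = 0.00671), a call that ended with quantile normalization (0.57, limma adjusted p = 0.0510). Bcorl1, a corepressor, was at 6.83 and 7.29 RPKM in WT and at 3.84 and 3.32 RPKM in cKO (log2 fold change -0.82, limma adjusted p = 0.00535), and its call held with each scaling and without each library. Pcgf3, of another variant complex, rose from 4.94 ± 0.285 to 8.11 ± 0.414 RPKM (SD, n = 2 each, limma adjusted p = 0.0123), though not with the other scalings or without either WT library (log2 fold change 0.57 and 0.67). The catalytic subunits Ring1 and Rnf2, named here for their role and after their values were seen, had log2 fold changes of -0.04 and 0.26 with limma adjusted p of 0.879 and 0.129. Of the 6 tested other deubiquitinases of H2A, 3 were higher and 1 was lower, against the same shares of all genes. Usp16 rose from 24.8 ± 2.49 to 39.1 ± 4.60 RPKM and Mysm1 from 2.00 ± 0.344 to 3.79 ± 0.0358 RPKM, whereas Usp46 fell from 3.91 ± 0.921 to 1.87 ± 0.453 RPKM (SD, n = 2 each; limma adjusted p = 0.00952, 0.0133, and 0.0180). Of the 3, only the Usp46 call held with each scaling, and it ended without WT replicate 2 (log2 fold change -0.58), as did that of Usp16 (0.54), whereas that of Mysm1 ended without WT replicate 1 (0.56).

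Of 12 partners of Hcfc1, 5 were higher and 0 were lower, beside 35.9% and 6.48% of all tested genes. Zfp143, a zinc finger protein that occupies promoters with Hcfc1, was at 2.48 and 2.39 RPKM in WT and at 4.78 and 5.08 RPKM in cKO (log2 fold change 0.79, limma adjusted p = 0.00585), with the same call under each scaling. Rbbp5 and Wdr5, core subunits of histone H3 lysine methyltransferases, rose from 2.54 ± 0.655 to 5.14 ± 0.141 RPKM and, for Wdr5, from 13.6 ± 1.16 to 21.5 ± 2.26 RPKM (SD, n = 2 each; limma adjusted p = 0.0101 and 0.0104). The call of Wdr5 ended with the other scalings and without WT replicate 2 (log2 fold change 0.54), and that of Rbbp5 ended without WT replicate 1 (0.62). Of 6 tested enzymes and partners related to Ogt, 2 were higher and 0 were lower, against the same shares. Tet3, a methylcytosine dioxygenase that binds Ogt, rose from 10.6 ± 0.153 to 16.7 ± 1.69 RPKM (SD, n = 2 each, limma adjusted p = 0.0101). Mgea5, the hydrolase that removes the N-acetylglucosamine added by Ogt, was at 17.2 and 18.3 RPKM in WT and at 24.9 and 26.8 RPKM in cKO. Its log2 fold change of 0.52 (limma adjusted p = 0.0130) stood beside 0.59 for Ogt, and neither Mgea5, Tet3, nor Ogt was called with the other scalings. Without WT replicate 1 the calls of Tet3 (0.59) and Mgea5 (0.47) ended, and that of Mgea5 also without WT replicate 2 (0.56).

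Of 8 tested genes with a methyl-CpG-binding or related domain, 4 were higher and 1 was lower, beside 35.9% and 6.48% of all tested genes. Mbd1, a repressor that binds methylated DNA, was at 55.1 and 48.7 RPKM in WT and at 31.2 and 34.3 RPKM in cKO (log2 fold change -0.65, limma adjusted p = 0.00620). It fell under each scaling, and its call ended without WT replicate 1 (-0.56). Mbd2 and Mbd3 rose from 48.0 ± 5.55 to 71.4 ± 7.17 RPKM and, for Mbd3, from 26.9 ± 1.75 to 39.1 ± 0.391 RPKM (SD, n = 2 each; limma adjusted p = 0.0141 and 0.0108), and neither was called with the other scalings or without WT replicate 2 (log2 fold change 0.45 and 0.46).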

How the data were processed

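TruSeq libraries of total RNA from sorted FAPs were read from both ends. The authors deposited 1 table of RPKM per RefSeq gene. Builds mm9 and mm10, TopHat2 (2.0.9), edgeR, and bedtools appear in the submitters' processing notes, with no role given. The counting rule was not given in the sources used here. RPKM divides by transcript length and library total, so a change in abundant genes moves all others. Genes without reads sit at a small positive value, and 1110 genes did so in all 4 libraries. Depth was computed from 457 olfactory receptor genes among them, taking 2.5 times that value as 1 read.

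Values were tested as log2(RPKM + 1), which understates changes of low genes, for genes that reached 1 RPKM in 2 or more libraries, with limma (version 3.58.1, R 4.3.3), lmFit and eBayes with a trend, two-sided, with Benjamini-Hochberg adjustment over all 11197 tested genes. With n = 2, p-values rest on a spread pooled across genes and measure only the spread between these libraries. The procedure was also run on simulated data drawn from its own fitted model, with no shift between the libraries. That run checks the code and cannot bear on the scaling or on the calls here. Alternatives were pseudocounts of 0.5 and 0.1, no filter or one at 5 RPKM, 3 rescalings, eBayes without trend or with a robust prior, omission of each library, a block for the replicate number, and the study's limit of 1e-05. The members and lists were chosen with earlier results of these data known, and the promoter search after values were seen. From each list up to 3 called genes with the smallest p were named. A planned comparison of protein sequences was not run. Positions are from GENCODE (GRCm38) and RefSeq (GRCm38.p6), and the build behind the table is unclear. Figures were drawn with matplotlib.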

Additional observations from a re-analysis of the deposited data

How the results depend on the processing

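The scaling of the libraries decided the calls. After scaling by median ratio, quantiles, or cyclic loess the genes higher in cKO numbered 1769, 1777, and 1885 in place of 4016, the genes lower 1527, 1818, and 1710 in place of 726, and the members higher 0, 0, and 0 in place of 3. The log2 fold change of Bap1 was then -0.16, -0.22, and -0.22, that of Asxl1 -0.020, -0.080, and -0.093, that of Mbd5 -0.17, -0.18, and -0.12, and that of Mbd6 was -0.0011 with quantile normalization. At the study's limit of 1e-05, 5 genes were higher and 0 lower, and 0 members were called. Leaving out 1 library at a time gave 2397 (without WT replicate 2) to 3611 (without cKO replicate 1) genes higher, 364 (without WT replicate 2) to 1221 (without cKO replicate 1) genes lower, and 1 (without either WT library) to 4 (without either cKO library) members higher. Foxk1 turned positive without WT replicate 2 (0.13) or cKO replicate 2 (0.03), and Mbd5 ran from -0.10 (without cKO replicate 1) to 0.24 (without cKO replicate 2). With depth class as a covariate, chosen after the data were seen, 5 members were higher, beside 4807 of all tested genes in place of 4016. The pseudocounts, filters, trend, and robust prior changed no call of a member. Whether the replicate numbers pair animals was not given in the sources used here. The deviations of the libraries numbered 1 correlated at -0.30 across genes. This cannot decide pairing, since WT replicate 1 was shallow and cKO replicate 1 deep. With the replicate number as a block, 3552 genes were higher and 731 lower, and 3 members were higher and 0 lower. The log2 ratio of Asxl3 to Bap1 differed by 0.97 between the groups, and by 0.08 as a ratio of RPKM + 1. Leaving out 1 library turned the sign of the difference for Mbd6 to Bap1 (0.22, and -0.04 without WT replicate 1 or -0.06 without cKO replicate 1), Foxk1 to Bap1 (-0.16, and 0.08 without WT replicate 2), and Mbd5 to Bap1 (-0.06, and 0.03 without WT replicate 2 or 0.22 without cKO replicate 2). The cause of these changes was not tested. Each group holds only 2 libraries.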
